A study of Mus musculus with 8 samples.

Results

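The Myc, Max and Mxd network was followed here through 10 of its genes (Myc, Mycn, Max, Mxd1, Mxd3, Mxd4, Mxi1, Mnt, Mlx and Mga), taken by symbol from a count table of 49315 mouse genes. All 10 had counts in every library and were among the 14970 genes tested. The RNA was that of OT-I CD8 T cells, which are killer T cells of a mouse whose transgenic receptor recognises an ovalbumin peptide. Naive cells from spleen and inguinal lymph nodes were kept in IL-7 (2.5 ng/ml) and IL-15 (50 ng/ml), cytokines that sustain T cells, edited by nucleofection of a CRISPR-Cas9 guide RNA, and collected 7 days later. The 4 control libraries (Control KO; WT) received a guide against the bacterial gene LacZ, and the 4 Carm1 KO libraries, called Carm1-edited here, a guide against Carm1, which encodes an arginine methyltransferase and transcriptional coactivator. Both arms thus carried the OT-I receptor, were called CD45.1 and went through nucleofection and the same cytokines, while the series text adds co-culture with B16F10-Ova melanoma cells, which the sample protocols do not describe. The libraries of an arm are called technical replicates in the labels and the number of cultures or animals is not given, so the p-values speak for the spread among libraries alone, and the edit cannot be told apart from other differences between the cell preparations.

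Proteins of this network bind DNA as pairs through a basic helix-loop-helix leucine zipper. Max is the shared partner: Myc or N-Myc with Max activates genes at E-box sequences, whereas the Mxd proteins, Mxi1, Mnt and Mga with Max repress many of the same sites, the Mxd group and Mnt through Sin3 corepressor and histone deacetylases. Mlx is a second hub that pairs with the glucose-responsive Mondo proteins and with some Mxd proteins. In T cells Myc rises after antigen or cytokine stimulation and supports growth, nucleotide synthesis and ribosome production, while Mxd proteins are known from cells that stop dividing or differentiate.

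Total counts were 37556330 to 41439998 per library, and levels are given as CPM, the count relative to the TMM-scaled library total, on which 3 counts equal 0.0718 to 0.0819 CPM. Carm1 itself was at 95.9 ± 1.04 CPM in control libraries and 32.8 ± 0.493 CPM after Carm1 editing (SD, n = 4 each). Part of its count is uncertain, because 1025 of its exonic bases (21.1%) lie over Yipf2 on the other strand, which had 157 to 198 counts per control and 623 to 722 per edited library against 1280 to 1381 for Carm1 in the edited libraries. Of the 14970 genes tested, 87.7% passed an adjusted p of 0.05 (edgeR quasi-likelihood test), 44.5% being higher and 43.2% lower after Carm1 editing. In 83.4% the groups did not overlap. The CD8 T cell markers were present in both groups (8 of 8 tested). Of these 6 were higher, among them Cd8a at 1573 and 1973 CPM and Cd8b1 at 768 and 1348 CPM. The 2 lower were Cd2 (1.37-fold) and Lck (1.08-fold), both named after their values were seen. Lck had no stable direction, with a log2 fold change of 0.11 under upper-quartile factors and 0.05 under library totals alone. The melanoma genes Tyr, Tyrp1, Dct and Sox10 had no counts in any library, and among the melanoma list Pmel was at 3.43 and 12.7 CPM and Mitf at 0.788 and 1.91 CPM. Markers of other cells moved with the groups. The summed level of 8 myeloid markers was 122 to 127 CPM in control libraries and 3.58 to 5.44 CPM after Carm1 editing. Of the 6 tested members 6 fell, among them Lyz2 from 83.1 to 0.148 CPM and Mpeg1 from 22.4 to 2.87 CPM, while C1qa, which had too few counts to be tested, had none in the edited libraries. The summed level of 5 erythroid genes was 4.76 to 5.29 and 0.167 to 0.451 CPM, with 4 of 5 lower (Hbb-bs 2.76 and 0.00601 CPM, Hba-a1 1.08 and 0.0179 CPM). The summed level of 8 B cell markers was 274 to 281 and 931 to 957 CPM, of which Ighm made 254 and 925 CPM, with 3 of 4 tested members higher (Cd79b 5.71 and 17.1 CPM). The fourth, Igkc, an immunoglobulin light chain gene named after its value was seen, fell 56.6-fold from 17.5 to 0.306 CPM (edgeR adjusted p = 2.8e-34), while Ms4a1 and Pax5 lay at 0.0923 CPM or less. Among 5 markers of other lymphoid cells 3 were higher and 2 lower (summed level 10.0 to 10.7 and 36.2 to 40.1 CPM; Zbtb7b 4.82 and 33.7 CPM, Foxp3 1.86 and 2.43 CPM). The higher sum was mostly Zbtb7b, and the natural killer cell genes Ncr1 (1.40 and 0.366 CPM) and Klrb1c (2.08 and 1.03 CPM), named after their values were seen, were the lower ones. The part of these cells in the results below was not tested, and in bulk RNA fewer cells of a type and less RNA per cell cannot be told apart.

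The E-box, searched here as the exact letters CACGTG, is a sequence that the pairs with Max bind, and 4 members carried it near their own start. Windows from 250 bases before to 50 bases after the start were taken from RefSeq (GRCm38.p6) for 9 of the 10 members, all but Myc. Max, Mxd4, Mnt and Mlx each held 1 E-box, in capitals below with 20 bases on either side and with its distance counted to its first base, while Mycn, Mxd1, Mxd3, Mxi1 and Mga held none. The 4 stretches are shown because they belong to a member that was lower (Max), the member with the largest rise (Mxd4), a smaller rise (Mnt) and a smaller fall (Mlx).
Max, chr12:76962226-76962271, minus strand, 3 bases before the start: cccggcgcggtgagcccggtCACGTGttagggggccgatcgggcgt
Mxd4, chr5:34187904-34187949, minus strand, 219 bases before the start: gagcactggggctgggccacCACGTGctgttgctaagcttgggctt
Mnt, chr11:74830781-74830826, plus strand, 123 bases before the start: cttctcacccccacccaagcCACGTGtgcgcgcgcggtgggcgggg
Mlx, chr11:101087230-101087275, plus strand, 40 bases before the start: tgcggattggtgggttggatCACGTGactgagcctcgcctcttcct
Counted by window, 4 of the 11 windows of these 9 members held the E-box. Of all 32851 RefSeq windows of this length 7.15% held the E-box, and of the 13104 windows of tested genes 9.81% did. The E-box reads the same on both strands. The whole Mxd4 window (chr5:34187661-34187960, minus strand) is given because this gene changed most upward, again with the E-box in capitals.
Mxd4 window: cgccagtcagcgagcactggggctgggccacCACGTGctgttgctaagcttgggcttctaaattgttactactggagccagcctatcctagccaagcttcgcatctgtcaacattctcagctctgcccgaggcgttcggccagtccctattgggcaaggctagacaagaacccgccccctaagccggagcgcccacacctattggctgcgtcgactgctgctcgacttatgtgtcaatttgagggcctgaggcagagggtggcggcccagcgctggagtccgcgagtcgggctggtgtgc
An E2F-type sequence, TTTGGCGC, searched on both strands, occurred 2 times in the Mycn window, within the stretch chr12:12941992-12942039 on the minus strand, in no window of another member, and in 0.923% of windows of tested genes.
Mycn: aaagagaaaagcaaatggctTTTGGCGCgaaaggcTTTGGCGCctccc
A forkhead-type sequence, GTAAACA, searched on both strands, occurred in 1 of the 3 Mxi1 windows and in 2.59% of windows of tested genes, and the cyclic AMP response sequence TGACGTCA, which reads the same on both strands, occurred in no member's window and in 3.04% of those of tested genes. A match describes letters in a window and does not show a site in use.

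Transcripts of Myc and Mycn were both reduced after Carm1 editing. Myc (ENSMUSG00000022346, chromosome 15, 61985391 to 61990374, plus strand, mm10), the network's main activator, was at 355, 366, 346 and 366 CPM in control libraries 1 to 4 and at 124, 124, 126 and 125 CPM in edited libraries 1 to 4. Every edited library thus lay far below every control library, and the spread within a group was small beside the gap. The fall was 2.88-fold (log2 fold change -1.53 ± 0.023 SE, edgeR adjusted p = 6.7e-40). Mycn (ENSMUSG00000037169, chromosome 12, 12936096 to 12941914, minus strand), which encodes the related N-Myc of embryonic and progenitor cells, was at 4.38, 4.46, 3.85 and 4.39 CPM in control libraries and at 0.287, 0.264, 0.300 and 0.526 CPM after Carm1 editing. It was scarce in both groups, with only 11 to 21 counts per edited library, and the groups did not overlap. Its fold change was the largest fall among the members, 12.4-fold (log2 fold change -3.63 ± 0.16, adjusted p = 1.2e-23), and 4.24% of tested genes had a larger absolute change. Per kilobase of exon, Mycn made up 0.911% to 1.01% of the summed level of Myc and Mycn in the control and 0.176% to 0.347% in the Carm1-edited libraries. Beside these falls, Lyz2, the tested myeloid marker with the largest fall, went from 83.1 to 0.148 CPM. The part of myeloid cells in the levels of Myc and Mycn was not tested.

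**Figure D1:**
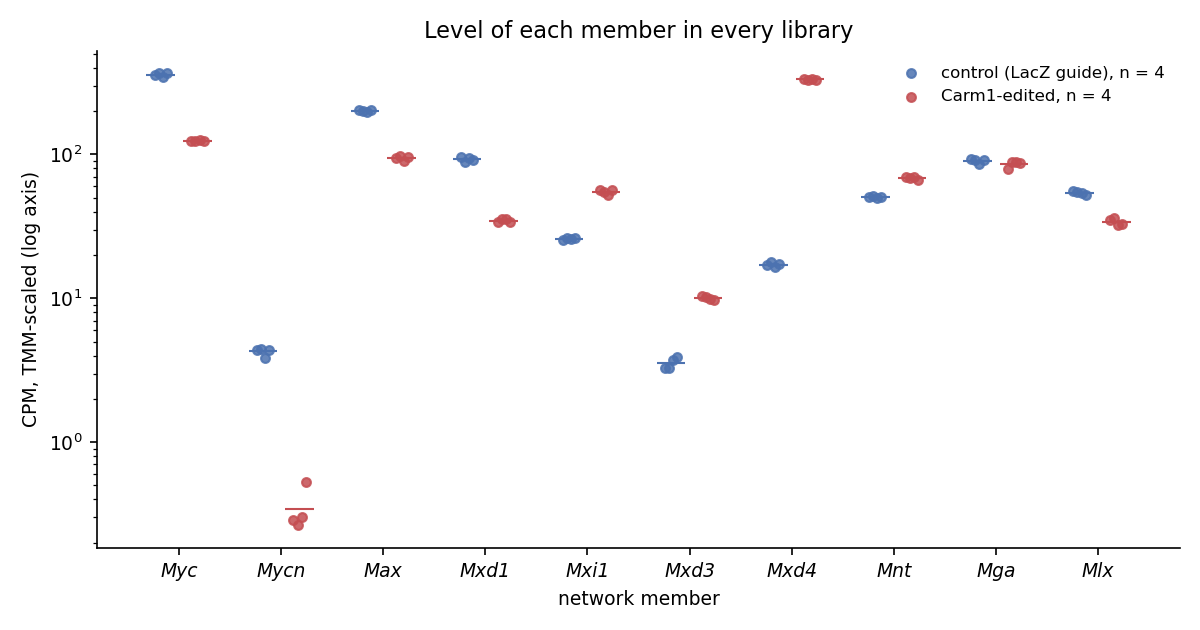
Level of each of the 10 members in every library, as TMM-scaled CPM on a log axis, with 4 control libraries (blue) and 4 Carm1-edited libraries (red) per gene and a line at each group's mean. The groups are apart for every member but Mga, whose control libraries span 85.5 to 93.5 CPM and edited libraries 79.6 to 88.7 CPM.

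Max, the obligate partner, was also lower. Max (ENSMUSG00000059436, chromosome 12, 76937269 to 76962248, minus strand) was at 202, 200, 198 and 204 CPM in control libraries and at 95.1, 97.4, 90.2 and 95.7 CPM after Carm1 editing. The groups did not overlap. The fall was 2.13-fold (log2 fold change -1.09 ± 0.025, edgeR adjusted p = 1.3e-33). Its E-box, printed above, begins 3 bases before its start.

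The Mxd group, whose proteins replace Myc on Max, moved in both directions. Mxd4 (ENSMUSG00000037235, chromosome 5, 34173883 to 34187720, minus strand) was at 17.1, 17.8, 16.4 and 17.4 CPM in control libraries and at 336, 330, 334 and 328 CPM after Carm1 editing. The edited libraries were within a few percent of each other and none approached a control library. The rise was 19.4-fold (log2 fold change 4.27 ± 0.028, edgeR adjusted p = 2.0e-51), the 201st largest rise among 14970 tested genes of any level. Mxi1 (ENSMUSG00000025025, chromosome 19, 53310506 to 53375810, plus strand), another Max-binding repressor of this group, was at 25.3, 26.3, 25.6 and 26.1 CPM in control libraries and at 56.2, 54.5, 52.5 and 56.3 CPM after Carm1 editing. It rose 2.12-fold (log2 fold change 1.09 ± 0.034, adjusted p = 7.3e-29) without overlap. Mxd3 (ENSMUSG00000021485, chromosome 13, 55325168 to 55329758, minus strand), the member of the group known from dividing cells, was at 3.29, 3.29, 3.72 and 3.93 CPM in control libraries and at 10.4, 10.1, 9.87 and 9.73 CPM after Carm1 editing. It rose 2.83-fold (log2 fold change 1.50 ± 0.072, adjusted p = 3.9e-22), again with no overlap, from a low level.

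Mxd1, the founding member of the Mxd group, went the other way. Mxd1 (ENSMUSG00000001156, chromosome 6, 86647042 to 86669161, minus strand) was at 96.1, 89.3, 94.6 and 91.0 CPM in control libraries and at 33.8, 35.5, 35.6 and 33.8 CPM after Carm1 editing. No edited library reached the lowest control library. The fall was 2.67-fold (log2 fold change -1.42 ± 0.030, edgeR adjusted p = 7.1e-35), near that of Myc. Mxd1 is also known from myeloid cells, whose 8 markers summed to 122 to 127 CPM in the control and 3.58 to 5.44 CPM in the edited libraries. The part of these cells in the level of Mxd1 was not tested. Some reads of Mxd3 are uncertain, because 104 bases of its 2081 exonic bases lie over Prelid1 on the other strand. The kit does not mark strand. Prelid1 had 17192 to 18581 counts per control and 12704 to 14170 per edited library. Mxd3 had 121 to 144 counts per control and 388 to 436 per edited library. The exons of Mxd4 and Mxi1 overlap only Gm42846 and Gm10197, which had 0 and at most 1 count per library.

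The other Max-binding repressors changed little. Mnt (ENSMUSG00000000282, chromosome 11, 74830920 to 74845725, plus strand), a broadly expressed antagonist of Myc, was at 50.2, 51.1, 49.6 and 50.9 CPM in control libraries and at 69.5, 68.3, 69.5 and 66.4 CPM after Carm1 editing. The groups were apart and the rise was 1.36-fold (log2 fold change 0.44 ± 0.027, edgeR adjusted p = 3.1e-18), smaller in absolute size than that of 65.6% of tested genes. Mga (ENSMUSG00000033943, chromosome 2, 119897228 to 119969581, plus strand), a large protein that brings Max to a variant Polycomb repressive complex, was at 93.5, 91.3, 85.5 and 91.2 CPM in control libraries and at 79.6, 88.7, 88.5 and 87.2 CPM after Carm1 editing. The groups overlapped, and edited library 1 was the lowest of all 8. The log2 fold change was -0.07 ± 0.032 (adjusted p = 0.036), and this call had no stable direction: upper-quartile factors gave 0.14 (adjusted p = 0.00017) and unscaled library totals 0.09 (adjusted p = 0.023), and it was lost without control library 1 (-0.07, adjusted p = 0.067) or without Carm1-edited library 1 (-0.04, adjusted p = 0.15), in a range of adjusted p from 0.00017 to 0.54 over 17 alternatives.

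**Figure D2:**
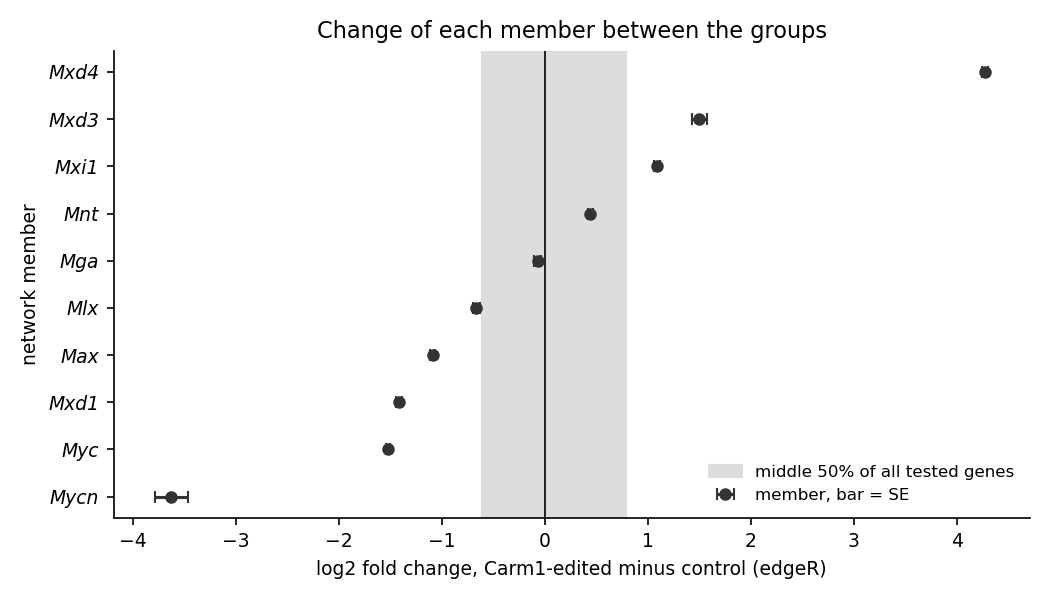
The log2 fold change of each member, Carm1-edited minus control, with its standard error, beside the interquartile range of all tested genes (grey, -0.61 to 0.78). Mxd4 at 4.27 and Mycn at -3.63 lie farthest out, and Mga and Mnt lie inside the grey band.

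Mlx, the hub of the parallel Mondo arm, was lower while a Mondo partner and the 2 listed targets of the arm were higher. Of all tested genes 44.5% were higher and 20.5% rose at least 2-fold. These targets were chosen with earlier results of these data known. Mlx (ENSMUSG00000017801, chromosome 11, 101087277 to 101092207, plus strand) was at 55.5, 54.8, 54.0 and 51.9 CPM in control libraries and at 35.0, 36.2, 32.1 and 32.7 CPM after Carm1 editing. The groups were apart and the fall was 1.59-fold (log2 fold change -0.67 ± 0.035, edgeR adjusted p = 2.6e-20). Of its exons 385 bases (19.3%) overlap those of Psmc3ip on the other strand, which had 524 to 585 counts per control and 98 to 112 per edited library against 1283 to 2191 for Mlx, so part of its count is uncertain. Mlxip, which encodes MondoA, rose 1.49-fold from 85.1 ± 1.34 to 127 ± 5.02 CPM (adjusted p = 1.5e-22). The related Mlxipl had no counts in the control and 30 in all edited libraries together, and Mycl, another Myc gene, had 10 and 37, both too few to be tested. Txnip, which restrains glucose uptake and is a textbook MondoA and Mlx target, rose from 257 ± 2.78 to 1409 ± 23.1 CPM, a 5.48-fold difference (adjusted p = 1.7e-47). Arrdc4, a related arrestin gene and target, rose from 2.44 ± 0.217 to 17.4 ± 0.511 CPM, a 7.13-fold difference (adjusted p = 1.4e-32). Looser forms of the E-box were not searched, and the promoter window of Txnip held no exact CACGTG. That of Arrdc4 held 1, 193 bases before the start and shown with the same marking.
Arrdc4, chr7:68749406-68749451, minus strand: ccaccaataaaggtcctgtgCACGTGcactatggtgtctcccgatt

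Taken as a group, 10 of 10 members passed the test against 87.7% of all tested genes, with 4 higher (44.5% of tested genes) and 6 lower (43.2%), and 9 of 10 did not overlap against 83.4%. These shares are near the background and say little about the network. Rises of at least 2-fold were found in 3 members (Mxd4, Mxd3, Mxi1) and falls of at least 2-fold in 4 (Mycn, Myc, Mxd1, Max), against 20.5% and 15.2% of tested genes. The median log2 fold change of the 10 was -0.37, and that of all tested genes 0.02. Within a group the members varied little from library to library: the coefficient of variation was 0.941% to 8.98% except for Mycn in the Carm1-edited libraries (35.5%, where counting alone gives 26.7%).

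Levels of different members were compared as CPM per kilobase of exon, using the deposited gene length, which is the union of all annotated exons and so can read low for a gene whose long exons are unused. In the control libraries Myc ranked first (127 to 135 CPM per kilobase), then Max (98.9 to 102), Mlx (25.9 to 27.8), Mxd1 (12.6 to 13.6), Mnt (10.7 to 11.0), Mga (5.58 to 6.09), Mxi1 (4.50 to 4.68), Mxd4 (1.93 to 2.09), Mxd3 (1.58 to 1.89) and Mycn (1.17 to 1.35). No neighbours in that order overlapped. In the Carm1-edited libraries Max (45.0 to 48.6) and Myc (45.5 to 46.4) overlapped at the top and Mxd4 came next (38.7 to 39.6), followed by Mlx (16.0 to 18.1), Mnt (14.4 to 15.0), Mxi1 (9.35 to 10.0) and Mga (5.19 to 5.78). Mxd1 (4.78 to 5.03) and Mxd3 (4.67 to 5.01) overlapped, and Mycn was last (0.0803 to 0.160). Mxd4 thus ranked 8 of 10 in the control and 3 of 10 in the edited libraries, and Mxd1 ranked 4 and 8.

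The balance of transcripts between the Myc genes and the Max-binding antagonists of Myc differed accordingly. Levels of the proteins and of their pairs were not measured. The summed level of Myc and Mycn was 129 to 136 CPM per kilobase in the control and 45.6 to 46.5 in the Carm1-edited libraries. The sum of Mxd1, Mxd3, Mxd4 and Mxi1 was 21.0 to 21.7 and 58.2 to 59.3 CPM per kilobase. The ratio of the first sum to the second was 5.94 to 6.49 in the control and 0.768 to 0.795 in the Carm1-edited libraries. These sums and ratios describe the libraries and were given no test. On plain CPM, without division by length, the ratio was 2.49 to 2.71 and 0.284 to 0.293. With Mnt and Mga added to the antagonists the ratio per kilobase was 3.39 to 3.58 and 0.573 to 0.589.

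Mxd4 made the difference between the Mxd sums per kilobase. Without Mxd4 the sum was 18.9 to 19.7 CPM per kilobase in the control and 19.1 to 19.8 in the Carm1-edited libraries. These ranges overlap, as lower Mxd1 stood beside higher Mxi1 and Mxd3. The overlap rests on the division by length. On plain CPM, Mxd1 fell from 92.7 to 34.7, Mxi1 rose from 25.8 to 54.9 and Mxd3 from 3.56 to 10.0. There the fall of Mxd1 exceeded the rises of Mxi1 and Mxd3 together. Of the sum per kilobase, Mxd1 held 60.0% to 62.7% in the control and 8.05% to 8.60% in the Carm1-edited libraries. Mxd4 held 8.92% to 9.97% and 66.5% to 67.3%. Mxi1 held 20.8% to 22.3% and 16.0% to 17.2%, and the share of Mxd3 overlapped between groups (7.30% to 8.81% and 8.03% to 8.44%). All partners of Max together stood at 1.68 to 1.74 times Max in the control and 2.56 to 2.80 times in the Carm1-edited libraries.

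**Figure D3:**
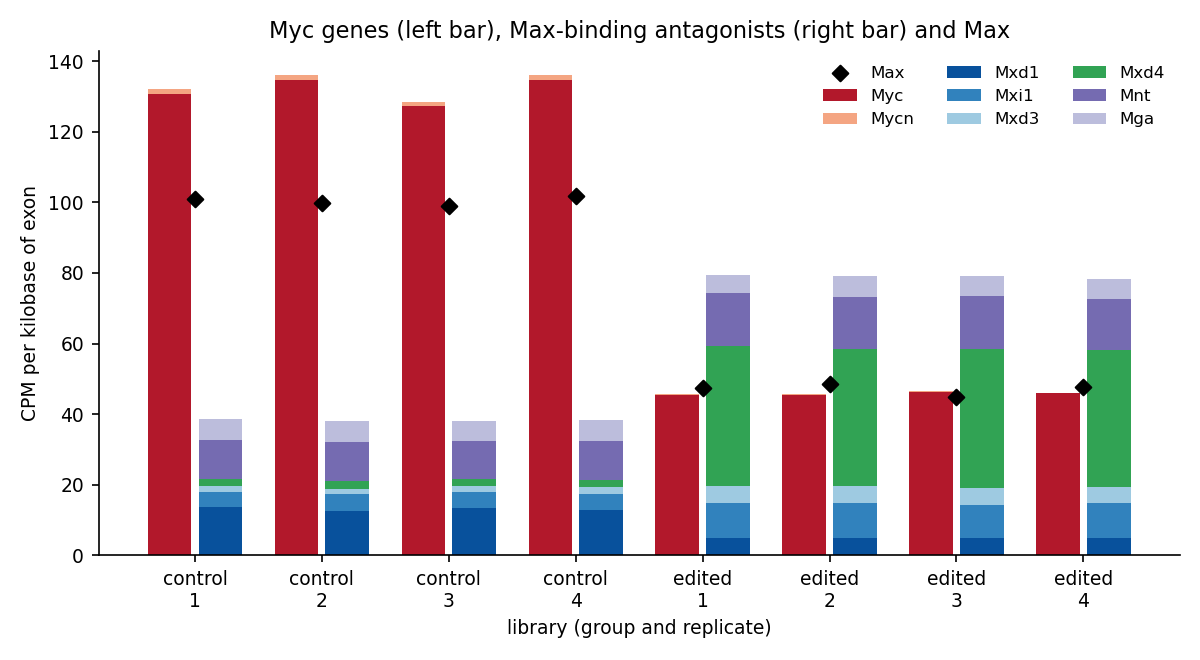
CPM per kilobase of exon in each of the 8 libraries for Myc and Mycn (left bar, stacked), the 6 Max-binding antagonists (right bar, stacked) and Max (diamond). In the control libraries the left bar (129 to 136) stands above the right (37.9 to 38.6), and in the edited libraries the right (78.2 to 79.6, of which Mxd4 makes 49.2% to 49.7%) stands above the left (45.6 to 46.5).

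Genes that Myc is known to induce were lower throughout, and the lists used here and below were chosen with earlier results of these data known. Of 28 such genes 28 fell and 0 rose, against 43.2% of all tested genes lower, with a median log2 fold change of -1.93 against 0.02, and 24 of the 28 fell at least 2-fold. Npm1, a nucleolar chaperone, had the smallest change (-0.08), and turned to a rise with upper-quartile factors (0.14) and library totals (0.08). Slc7a5, a large neutral amino acid transporter, was at 267 ± 3.18 and 25.4 ± 1.07 CPM, a 10.5-fold fall (edgeR adjusted p = 1.5e-48). Mybbp1a, a nucleolar protein, fell 7.31-fold, Shmt2, a mitochondrial one-carbon enzyme, fell 6.20-fold, and Nop56, a component of small nucleolar ribonucleoproteins, fell 5.28-fold. An E-box was found in a promoter window of 8 of the 21 listed genes that had a window. Counted by window it was 9 of 26, against 9.81% of windows of tested genes. Of 6 genes that Myc is known to repress, 4 rose and 2 fell (median log2 fold change 0.55), against 44.5% of all tested genes higher and 43.2% lower. Cdkn1b, which encodes the cell cycle inhibitor p27, rose 2.65-fold from 141 ± 1.94 to 373 ± 9.65 CPM, Ndrg2, a differentiation-associated gene, rose 1.84-fold, and Gadd45a, a growth arrest gene, rose from 2.22 to 5.85 CPM. Ndrg1, related to Ndrg2, fell 1.27-fold, and Cdkn2b, a cell cycle inhibitor named after its value was seen, was at 0.452 and 0.0980 CPM.

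Genes for proteins that work with Myc or set its stability were mostly lower by smaller amounts. Of 15 Myc cofactor genes 12 fell, 1 rose and 2 did not pass (median log2 fold change -0.65), against 43.2% of all tested genes lower and 44.5% higher. The AAA+ ATPases Ruvbl1 and Ruvbl2 fell 3.84-fold and 3.90-fold, the acetyltransferase gene Kat2a fell 2.31-fold and the chromatin remodeller subunit Smarcb1 fell 2.24-fold. The rise was that of Trrap, the scaffold of acetyltransferase complexes (1.28-fold), and the genes that did not pass were Zbtb17, which encodes Miz-1 (log2 fold change -0.06 ± 0.031), and Bin1 (-0.02 ± 0.026), all 3 named after their values were seen. The counts of cofactors depended on scaling, with 4 higher and 9 lower under upper-quartile factors or library totals alone. Of 15 genes that govern turnover of Myc protein, 11 fell, 2 rose and 2 did not pass (median -0.52), against the same 43.2% lower and 44.5% higher, and with upper-quartile factors 4 were higher and 9 lower. Usp36 and Usp37, which encode deubiquitinases, fell 3.04-fold and 1.80-fold, whereas the mitotic kinase Plk1 rose 3.43-fold. The other rise was that of Aurka, also a mitotic kinase (1.92-fold, named after its value was seen). Fbxw7, which encodes the ubiquitin ligase subunit that recognises phosphorylated Myc, was at 38.4 ± 0.475 and 26.8 ± 1.22 CPM and was likewise named after its value was seen.

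The corepressor through which Mxd and Mnt act changed moderately. Of 14 Sin3 complex genes 10 fell and 4 rose (median log2 fold change -0.31), against 43.2% of all tested genes lower, 44.5% higher and 87.7% called in either direction, and with upper-quartile factors 8 fell and 4 rose. Rbbp7 and Rbbp4, histone-binding subunits, fell 3.28-fold and 1.73-fold, the deacetylase gene Hdac2 fell 2.18-fold and Sap18, an accessory subunit, fell 1.66-fold. The 4 that rose were Suds3, Arid4b, Ing1 and Ing2, by 1.79-fold at most and named after their values were seen. Of 9 genes of the Polycomb complex that holds Mga, 6 fell and 3 rose (median -0.48), against the same 43.2% lower and 44.5% higher, and 9 of 9 called against 87.7%. The transcription factors Tfdp1 and E2f6, which bind DNA as a pair in this complex, fell 2.62-fold and 2.63-fold, Rybp, a subunit, fell 2.24-fold, and Pcgf6, the subunit that defines the complex, fell 1.78-fold. The 3 that rose, Rnf2, Ring1 and Yaf2, did so by 1.34-fold at most and were named after their values were seen.

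Germline genes, the known targets of the Mga complex, remained near 0 apart from 2. Of 9 listed genes 7 had too few counts to be tested, and Mael and Slc25a31 had none in any library. Ddx4, a germ cell RNA helicase, had 9 counts in all control libraries and 238 in all Carm1-edited libraries, 0.0598 ± 0.0247 and 1.46 ± 0.205 CPM (log2 fold change 4.53 ± 0.30, edgeR adjusted p = 2.0e-17). Stag3, a meiotic cohesin subunit, was at 1.80 ± 0.196 and 1.56 ± 0.178 CPM and did not pass (log2 fold change -0.21 ± 0.13, adjusted p = 0.15). An E-box stood in a promoter window of 7 of the 9. Counted by window it was 8 of 10, against 7.15% of all windows and 9.81% of those of tested genes. That of Ddx4 lay 29 bases before its start.
Ddx4, chr13:112652314-112652359, minus strand: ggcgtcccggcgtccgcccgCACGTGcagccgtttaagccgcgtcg

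**Figure D4:**
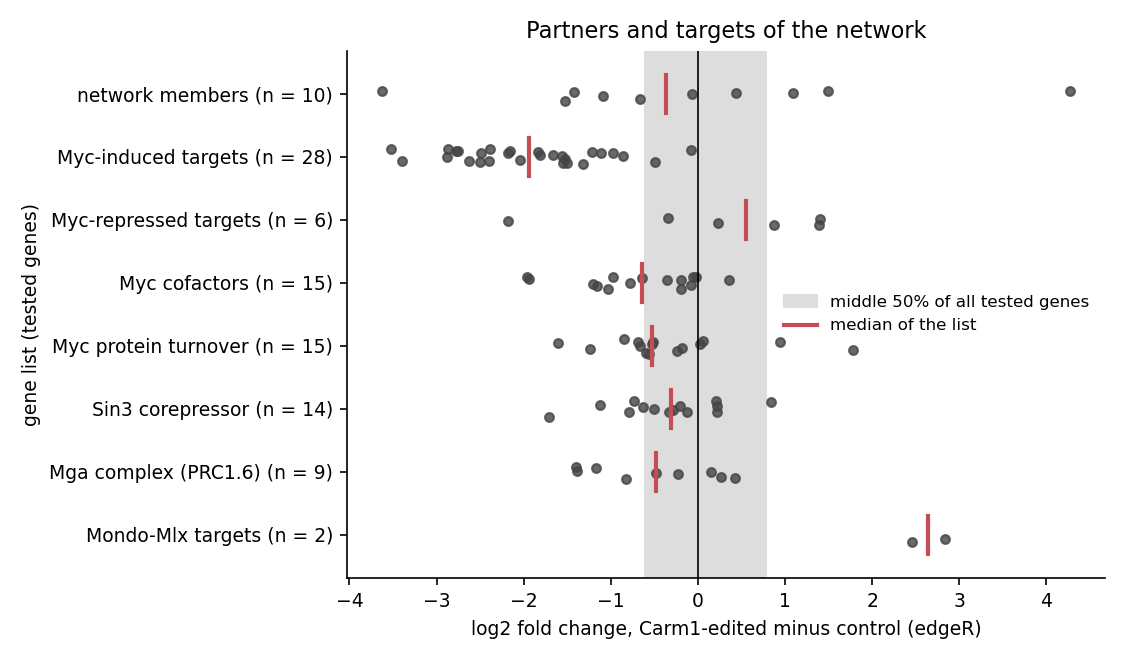
The log2 fold change of every tested gene (points) in each list, with the list's median (red line) and the interquartile range of all tested genes (grey). The Myc-induced targets lie left of 0 with a median of -1.93, whereas the cofactor, turnover, Sin3 and Mga complex lists have medians from -0.31 to -0.65.

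Genes with the pattern nearest to that of Myc and of Mxd4 were found by the root mean square difference of centred log2 CPM over the 8 libraries, among 8477 genes with a mean of at least 10 CPM. Nearest to Myc were Lsm2, an RNA-binding protein of messenger RNA decay and splicing complexes, the long noncoding RNA gene AI506816, Noc4l, a nucleolar protein, Dnajc11, a mitochondrial DnaJ protein, and Sbno2, at differences of 0.0174 to 0.0305 where the median gene was at 0.691. Lsm2 went from 50.0 ± 1.18 to 17.4 ± 0.233 CPM after Carm1 editing, and AI506816 from 255 ± 6.81 to 86.9 ± 0.889 CPM. Nearest to Mxd4 were Bst1, Endou, Ctla2b, Dntt and Tigit, at differences of 0.0543 to 0.102 where the median gene was at 2.22. Bst1, an ectoenzyme of lymphoid precursors, was at 4.34 ± 0.0889 and 85.4 ± 3.35 CPM, Dntt, the terminal transferase of lymphocyte precursors, at 8.70 ± 0.382 and 151 ± 3.74 CPM, and Tigit, an inhibitory receptor of T cells, at 2.36 ± 0.279 and 45.2 ± 0.213 CPM. With 2 groups of technical replicates this likeness rests mainly on the size of the group difference.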

How the data were processed

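Each deposited table lists, per Ensembl gene, exon positions, gene length and a whole-number count. The authors counted with RSEM against mm10, per the labels' protocols, from paired 150 bp reads of a TruSeq poly(A) kit without strand information. RSEM estimates need not be whole, and the step that made them so is unknown. Aligner, annotation, strand setting and versions: not given in the sources used here. Of 49315 identifiers 48970 were given a symbol (GENCODE M21). Within groups the 12 pairs of libraries differed beyond sampling noise (chi-square per degree of freedom 1.45 to 13.5), and all 8 were kept.

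Genes were kept by filterByExpr, scaled with TMM factors and tested by robust quasi-likelihood (edgeR 4.0.16, R 4.3.3, two-sided, Benjamini-Hochberg over 14970 genes, threshold 0.05). Standard errors are log2 fold change over the square root of F. CPM use TMM-scaled totals. The fit was also run on simulated counts as a self-test, whose outcome is not reported here. Alternatives included DESeq2 1.42.0 and limma-voom (limma 3.58.1). Members and lists were chosen with earlier results of these data known. Named genes were all members, Carm1, up to 4 genes per list with the smallest adjusted p, the 2 most abundant per marker list, and the 5 nearest in pattern to Myc and to Mxd4 (mean of at least 10 CPM, prior count 2, no predicted genes). A few genes that this rule names are not reported here.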

Additional observations from a re-analysis of the deposited data

Results flagged for a closer look

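In 3 of the 22 groups of 4 libraries examined (the members and Carm1), 1 library stood apart from the other 3 by Dixon's criterion, of which chance flags about 1 in 20. Mycn in control library 3 was at 3.85 CPM where the others were at 4.38 to 4.46 CPM. In Carm1-edited library 4 it was at 0.526 CPM where the others were at 0.264 to 0.300 CPM. Mga in Carm1-edited library 1 was at 79.6 CPM where the others were at 87.2 to 88.7 CPM, and without that library its fall was no longer called.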

How the results depend on the processing

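Over 17 alternatives every member but Mga, and Carm1, kept its direction and its call where it was tested (Mycn in 16, being under the 5 CPM filter). Myc ran from -1.55 to -1.31, Max from -1.11 to -0.87, Mxd1 from -1.45 to -1.20, Mxd4 from 4.24 to 4.49, Mxi1 from 1.06 to 1.30 and Mnt from 0.41 to 0.66. The median log2 fold change over all genes shifted by 0.215 with upper-quartile factors and by 0.160 with library totals, and the share of calls that were higher went from 50.8% to 61.0% and 58.4%. Mga reversed with upper-quartile factors (0.14), library totals (0.088) and a floor of 5 CPM in 4 or more libraries (0.021, adjusted p = 0.54), and ran from -0.11 to -0.040 with a library left out.

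With upper-quartile factors, and equally with library totals, 4 cofactor genes, 4 Myc turnover genes and 1 Myc-induced gene were higher and 1 CD8 T cell marker was lower. Without a low-count filter 3 other network genes and 2 germline genes were higher and 4 B cell markers were lower. With the floor of 5 CPM, fewer genes were tested: 2 cofactor, 4 turnover, 1 melanoma and 1 other lymphoid genes were higher, and 1 Myc-repressed, 1 CD8 T cell, 3 myeloid and 0 other lymphoid genes were lower. With mitochondrially encoded genes left out 1 Myc-repressed gene was lower, and the cause was not tested.

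Libraries with the same number did not deviate together (correlations -0.0848 to -0.0509, 0 of 8 best with their own number). No pairing by replicate number was thus seen, though with so few libraries the check cannot show that there was none. With the replicate number as a block 6611 genes were higher and 6420 lower, against 6667 and 6468, and Mga was at -0.07 (adjusted p = 0.045).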
